A study of Mus musculus with 5 samples.

Results

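Genes of tight junctions, cadherin junctions and cell polarity were compared between *Fnip1* null and wildtype mouse kidney. The members were chosen by gene symbol, with earlier results of these data known. They were all numbered claudins and cadherins, the Tjp scaffolds, the alpha and p120-type catenins and the Jam, Marvel and nectin proteins. The Par and Crumbs polarity proteins, occludin, *F11r*, cingulin and paracingulin were also taken. This gave 73 of the 24421 gene symbols in the count files: 23 claudins, 23 cadherins and 27 others. RNAseq reads per gene were available for cortical kidney tissue of 5 mice of strain C57BL6J, 1 library per mouse: 3 *Fnip1* null mice (genotype *Fnip1*-/-, mice 8637, 9210 and 9121) and 2 wildtype mice (*Fnip1*+/+, mice 9055 and 9056). The sources differ on the controls: the labels give *Fnip1*+/+, which is followed here, whereas the study's text names *Fnip1*+/- controls for the RNAseq in one place and wildtype mice in another, with a different group size. If the controls were heterozygous, each fold change would compare null with heterozygous kidney. The number of null mouse 9210 is as its label gives it, and the deposit also writes it with the digits in another order. The labels give no age, sex or treatment, and both groups were processed from frozen tissue. Fnip1 is a folliculin-interacting protein that acts on AMPK and mTORC1 signalling. The null allele was carried in the germline, so every cell type of the kidney carried it.

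Tight junctions seal the space between neighbouring epithelial cells, and claudins are the membrane proteins that decide which ions pass through that space. Each stretch of the kidney tubule carries its own set: claudin 2 forms a cation and water pore in the proximal tubule, claudins 16 and 19 carry magnesium and calcium past the cells of the thick ascending limb, and claudins 3, 4, 7 and 8 tighten the distal tubule and collecting duct. Occludin, tricellulin and the Jam proteins share the junction, and the ZO scaffolds and cingulin tie it to actin. Below it, classical cadherins hold the cells together through catenins, nectins start the contact, and the Par complex with Crumbs separates the apical from the basolateral side.

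Of the 73 members, 49 had enough counts to be tested, 15 of them claudins, 9 cadherins and 25 others. Values are given as normalized CPM, each gene's share of its library's counts on genes, expressed per a fixed total and adjusted by TMM factors, in the order of null mice 8637, 9210 and 9121 and of wildtype mice 9055 and 9056. Counts on genes ran from 15799114 to 19132145 per mouse, and 3 counts, taken as the floor of detection, correspond to 0.158 to 0.186 CPM. *Fnip1* itself was lower in every null mouse, at 20.96, 16.9 and 15.99 CPM against 51.7 and 48.6 CPM (log2 fold change -1.48, edgeR quasi-likelihood test, adjusted p = 0.0313). Some libraries stood apart from others of their genotype. *Xist*, the X-inactivation RNA, was at 314 CPM in null mouse 9121 and at most 1.41 CPM in the other mice, and the Y-linked *Ddx3y*, *Uty* and *Kdm5d* had no counts in that mouse alone. By these genes null mouse 9121 was female and the other mice were male, so only the null group mixed the sexes. *Slc14a2*, a urea transporter of the inner medulla, was at 0.824, 16.1 and 99.7 CPM in null and 81.5 and 1.89 CPM in wildtype mice, high in 1 mouse of each genotype. The fat cell gene *Adipoq* was at 0.589, 22.04 and 8.97 CPM against 0.497 and 1.31 CPM, high in null mice 9210 and 9121. The part of these differences in the results below was not tested. In whole tissue, fewer cells of a type and less RNA per cell cannot be told apart.

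No member passed the threshold of an adjusted p under 0.05 and a change of at least 2-fold in edgeR's quasi-likelihood test, in which 0.404% of all 13874 genes tested were called higher and 0.13% lower. At an unadjusted p under 0.05 in the same test, 8 members were higher in null mice (*Cldn4*, *Cldn5*, *Cldn7*, *Cldn15*, *Tjp1*, *Pvrl1*, *Pvrl2* and *Pard3b*) and 4 were lower (*Cldn10*, *Cdh4*, *Pvrl3* and *Pard3*). These were 24.5% of the members tested, beside 25.1% of all genes tested (13.9% higher and 11.2% lower). With the exact test of edgeR, its likelihood ratio test and DESeq2, *Cldn5* was called higher and *Cdh4* lower. The exact test called 3.03% of all genes higher and 1.04% lower, the likelihood ratio test 3.44% and 1.09%, and DESeq2 2.61% and 0.865%. At an adjusted p under 0.05 alone the exact test of edgeR gave 5 members higher (*Cldn4*, *Cldn5*, *Cldn7*, *Pvrl1* and *Pvrl2*; 6.16% of all genes) and 1 lower (*Cdh4*; 3.62% of all genes). The median log2 fold change of the members was 0.12 (null minus wildtype) and that of all genes 0.0031. The log2 fold change was positive for 34 of the 49 members, 69.4% against 50.5% of all genes, and it lay within 1 of 0 for 44 members. All 3 null mice were above both wildtype mice for 11 members (22.4%, all genes 22.9%) and below both for 8 (16.3%, all genes 23%).

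**Figure D1:**
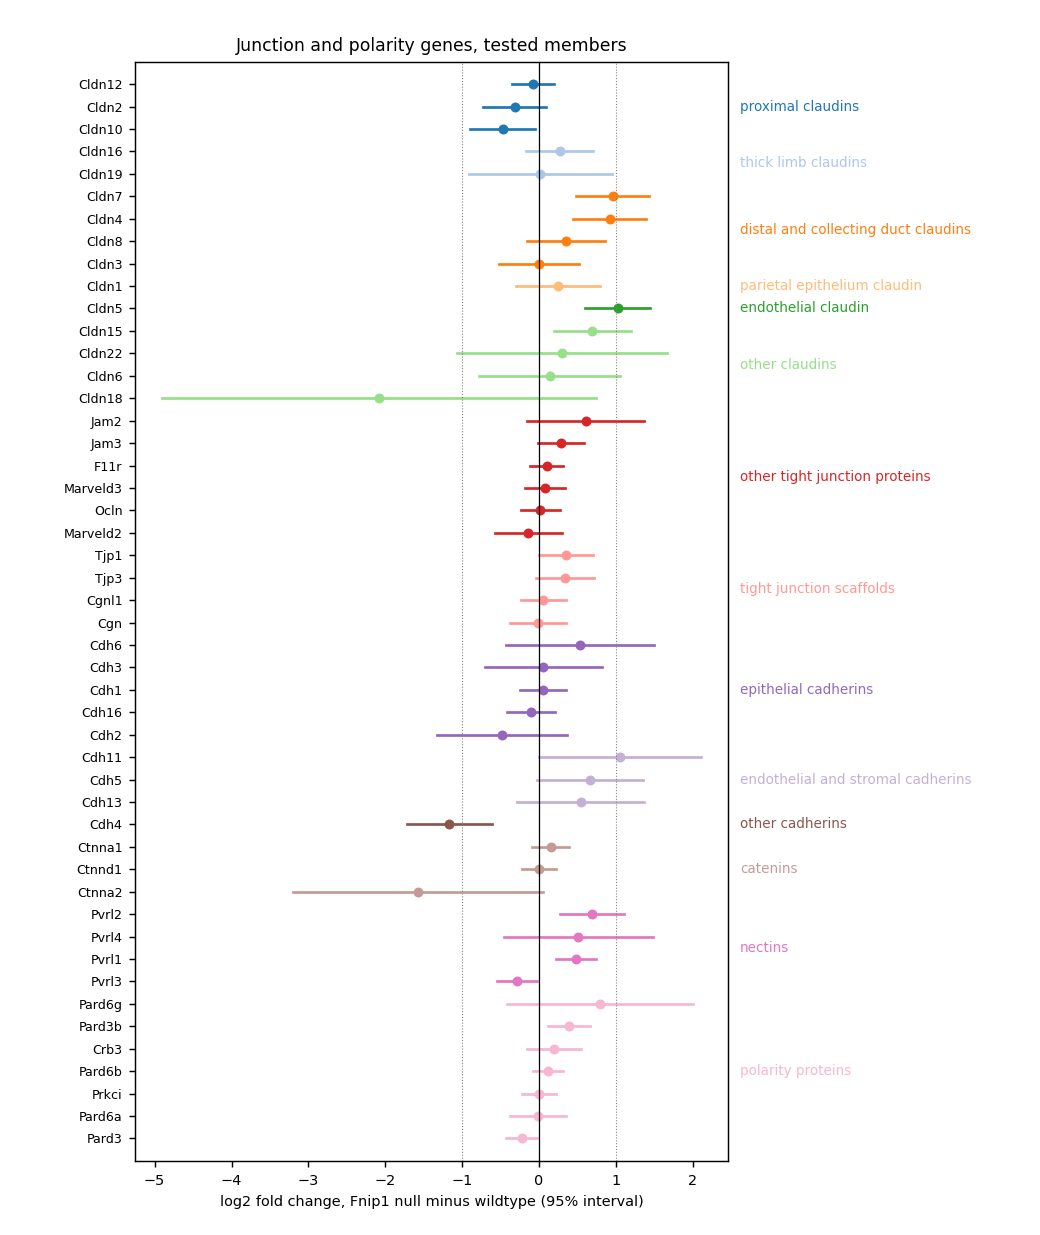
Log2 fold change of 48 tested members, *Fnip1* null minus wildtype (3 against 2 mice), with 95% intervals from edgeR's quasi-likelihood fit, grouped by role; dotted lines mark a 2-fold change. Most points lie within 1 of 0, *Cldn5*, *Cldn7*, *Cldn4* and *Cdh11* lie near or past 1, and *Cdh4*, *Ctnna2* and *Cldn18* lie below -1.

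The claudins of the distal tubule and collecting duct had unlike values. *Cldn4*, a barrier claudin that with claudin 8 shapes a chloride path in the collecting duct, was at 33.4, 50.9 and 48.4 CPM in null and 21.9 and 24.8 CPM in wildtype mice. Every null mouse was above both wildtype mice, with null mouse 8637 nearest to them (log2 fold change 0.92, SE 0.198, quasi-likelihood adjusted p = 0.0790). *Cldn7*, which also lies along the basolateral membrane of these cells, stood at 24.9, 37.8 and 35.9 CPM against 17.1 and 16.8 CPM. Here too the groups did not overlap and mouse 8637 was the lowest null mouse (log2 fold change 0.96, SE 0.195, quasi-likelihood adjusted p = 0.0747). In the exact test of edgeR, which left both just short of 2-fold, the adjusted p was 0.00265 for *Cldn4* and 0.00165 for *Cldn7*. *Cldn8*, the partner that brings claudin 4 to the junction, was at 76.4, 118 and 122 CPM against 87.4 and 78.1 CPM. Null mice 9210 and 9121 were above the wildtype mice and 8637 below them (log2 fold change 0.35, quasi-likelihood adjusted p = 0.337). *Cldn3*, a general sealing claudin, was at 9.95, 13.6 and 16.3 CPM against 13.3 and 13.3 CPM, and the wildtype values lay inside the range of the null mice (log2 fold change -0.00013, 95% interval -0.52 to 0.52).

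*Cldn3* and *Cldn4* are neighbours on mouse chromosome 5, with starts 39.28 kb apart and on opposite strands, so they are shown for what lies before the starts of a pair of adjacent genes with unlike values. Counts of *Cldn4* per 100 counts of *Cldn3* were 336, 374 and 297 in null mice and 165 and 186 in wildtype mice, higher in every null mouse. This pair was chosen after the values were seen, and the ratio restates the values of both genes given above. The 250 bases before each start (RefSeq, GRCm38.p6) follow, with *Cldn3* at chr5:134985964-134986213 on the plus strand and *Cldn4* at chr5:134946935-134947184 on the minus strand. The endothelial *Cldn5*, the member with the lowest p, is added from chr16:18776597-18776846 on the plus strand. Letters are 5′ to 3′, and capitals mark a match to a motif searched on both strands.
Cldn3: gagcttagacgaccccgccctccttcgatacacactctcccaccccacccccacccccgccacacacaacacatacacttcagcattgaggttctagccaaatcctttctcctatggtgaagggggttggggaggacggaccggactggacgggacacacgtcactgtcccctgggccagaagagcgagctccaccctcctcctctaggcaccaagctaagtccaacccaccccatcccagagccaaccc
Cldn4: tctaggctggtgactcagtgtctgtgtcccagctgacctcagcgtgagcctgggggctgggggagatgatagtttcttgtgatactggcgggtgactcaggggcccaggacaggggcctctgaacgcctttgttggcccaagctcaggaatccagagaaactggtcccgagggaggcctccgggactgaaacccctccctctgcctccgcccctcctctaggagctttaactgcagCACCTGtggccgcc
Cldn5: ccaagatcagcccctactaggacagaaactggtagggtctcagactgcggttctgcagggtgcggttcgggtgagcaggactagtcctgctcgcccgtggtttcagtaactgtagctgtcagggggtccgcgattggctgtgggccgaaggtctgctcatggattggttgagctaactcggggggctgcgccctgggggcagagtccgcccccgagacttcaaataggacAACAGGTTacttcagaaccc
The capitals in *Cldn4* are an E-box of the kind read by Snail and Zeb repressors (CAGGTG or its reverse complement), 14 bases before the start. This E-box was found in 22.5% of the 71 promoters of the 52 members in the promoter table and in 17.2% of all 32851 promoters. The capitals in *Cldn5* match the grainyhead-type motif AACCNGTT on the opposite strand, 20 bases before the start, which 2.82% of the members' promoters and 1.79% of all promoters held. No searched motif, the TATA box TATAAA included, was found in the *Cldn3* window. A match is a stretch of letters and not a measured binding site.

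Several collecting duct markers stood higher in null mice beside *Cldn4* and *Cldn7*. *Aqp2*, the water channel of principal cells, was at 175, 231 and 256 CPM against 133 and 128 CPM (log2 fold change 0.76, quasi-likelihood adjusted p = 0.0837). Of the 6 principal cell markers, 4 were above both wildtype mice in all 3 null mice, beside 22.9% of all genes. Another, *Avpr2*, was below both in all 3, beside 23% of all genes. The summed level of the 6 markers was 506, 679 and 645 CPM in null and 420.0 and 426 CPM in wildtype mice. Intercalated cell markers had a median log2 fold change of 1.06. Of these 5 markers, 1, *Atp6v0d2*, was called higher (log2 fold change 1.31, quasi-likelihood adjusted p = 0.0496), beside 0.404% of all genes. Counts of *Cldn4* per 100 counts of *Aqp2* were 19.1, 21.99 and 18.9 in null and 16.5 and 19.5 in wildtype mice, and the groups overlapped. For *Cldn7* the same ratio was 14.2, 16.4 and 14.03 against 12.9 and 13.2, slightly higher in every null mouse. For *Cldn8* it was 43.5, 50.99 and 47.7 against 65.7 and 61.3, lower in every null mouse. The log2 fold changes of the 6 principal cell markers ran from -0.47 to 0.82, with *Aqp3* at 0.23 and *Fxyd4* at -0.22. A ratio to another of these markers can therefore differ from the ratio to *Aqp2*. These pairs were chosen after the values were seen and were not tested.

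**Figure D2:**
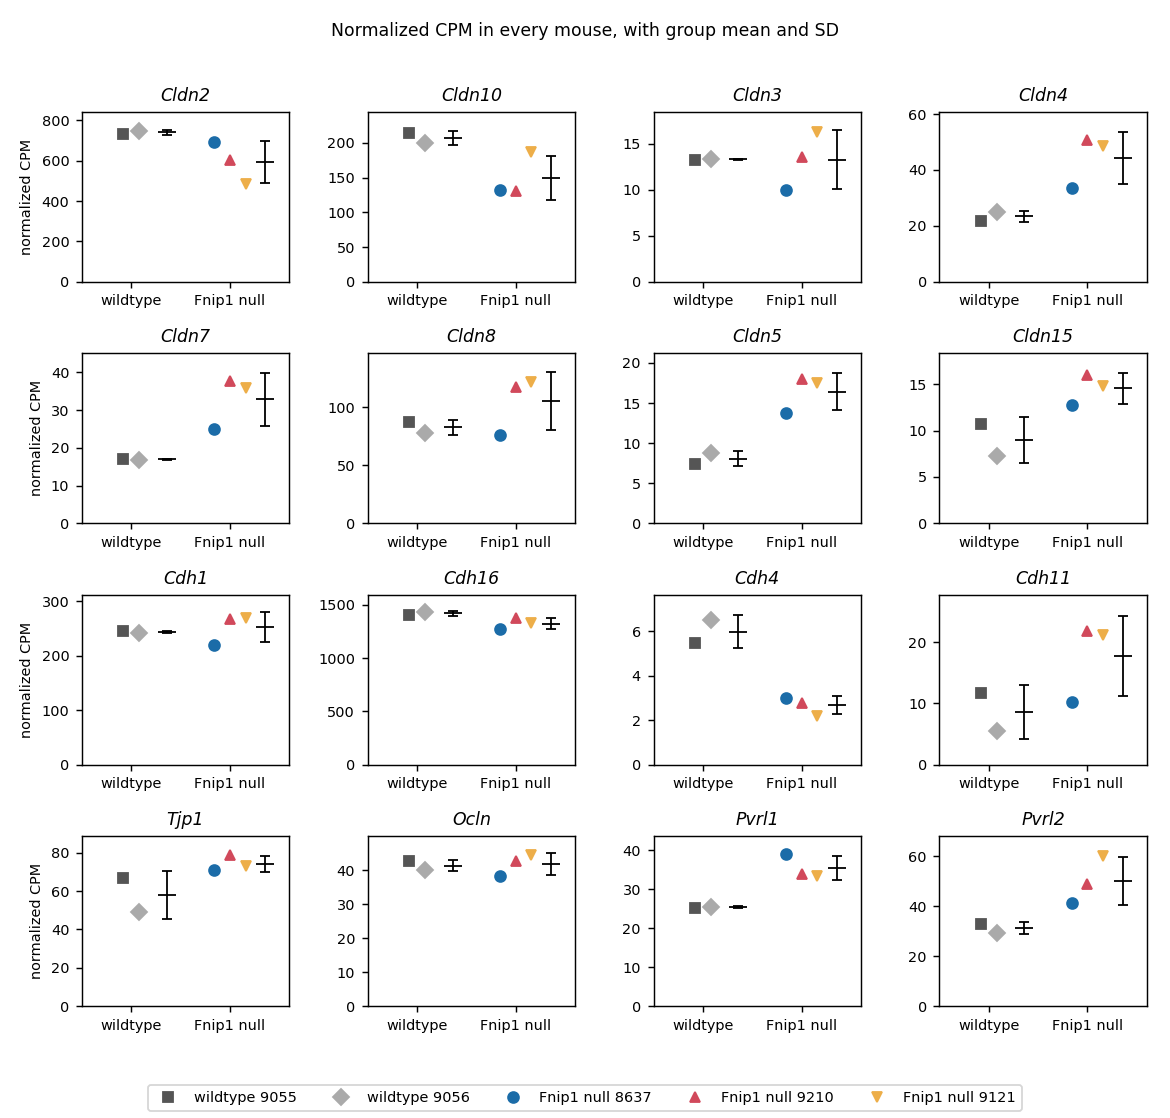
Normalized CPM of 16 members in each of the 5 mice (y axis from 0, a scale for each panel); symbols are mice, and the bar beside each group is its mean with SD (n = 2 wildtype, n = 3 *Fnip1* null). *Cldn4*, *Cldn7*, *Cldn5*, *Pvrl1* and *Pvrl2* are above both wildtype mice in all 3 null mice, *Cdh4* is below, and *Cldn3*, *Cdh1* and *Ocln* overlap.

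All 3 claudins listed as proximal had negative log2 fold changes, none past the threshold, and the *Cldn10* value also holds its thick limb form. *Cldn12* turned to 0.076 when libraries were scaled by size only, which moved the median of all genes to 0.17. *Cldn2*, the pore of the proximal tubule and the most abundant claudin per length of transcript, was at 691, 605 and 486 CPM in null and 731 and 748 CPM in wildtype mice. All null mice were below both wildtype mice, mouse 9121 most and mouse 8637 least (log2 fold change -0.32, SE 0.169, quasi-likelihood adjusted p = 0.291). *Cldn10*, an ion-selective pore with separate forms in the proximal tubule and thick limb, was at 131, 131 and 186 CPM against 214 and 200.3 CPM. The groups did not overlap, and mouse 9121 lay nearest to the wildtype mice (log2 fold change -0.47, quasi-likelihood unadjusted p = 0.0327, adjusted p = 0.168). *Cldn12* was at 139, 116 and 116 CPM against 128 and 134 CPM and overlapped (log2 fold change -0.082). Proximal tubule markers had a median log2 fold change of -0.34, with 8 of 10 negative and 6 below both wildtype mice in every null mouse. The 2 positive ones, *Slc5a2* and *Slc5a12*, were above both wildtype mice in every null mouse (log2 fold changes 0.26 and 0.63). Over all genes, 23% were below and 22.9% above in this way. Counts of *Cldn2* per 100 counts of *Lrp2*, the proximal tubule endocytic receptor megalin, were 35.8, 43.9 and 31.4 in null and 31.5 and 29.3 in wildtype mice and overlapped, and so did those of *Cldn10*, at 6.81, 9.47 and 12.01 against 9.23 and 7.85. *Lrp2* itself had a log2 fold change of -0.59, more negative than the marker median, and ratios to another marker can differ.

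*Cldn10* transcripts begin at a pair of starts 67.079 kb apart, and the deposited counts merge them into 1 value, so the 2 forms of the gene cannot be told apart here. The 250 bases before both are shown because they are unlike in base composition, 36% and 72.4% G and C (RefSeq, GRCm38.p6, chr14:118787621-118787870 and chr14:118854700-118854949, plus strand). No searched motif was found in either, so there are no capitals.
Cldn10 upstream start: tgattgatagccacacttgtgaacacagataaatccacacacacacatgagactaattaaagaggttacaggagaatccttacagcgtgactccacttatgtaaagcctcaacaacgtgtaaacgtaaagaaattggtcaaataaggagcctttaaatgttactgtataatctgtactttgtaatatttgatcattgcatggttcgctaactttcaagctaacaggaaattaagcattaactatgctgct
Cldn10 downstream start: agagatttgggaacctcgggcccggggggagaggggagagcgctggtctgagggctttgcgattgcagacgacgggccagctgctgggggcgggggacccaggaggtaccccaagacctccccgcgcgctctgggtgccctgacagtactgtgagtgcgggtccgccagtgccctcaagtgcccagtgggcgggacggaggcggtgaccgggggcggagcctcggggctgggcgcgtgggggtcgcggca
By comparison, the median over all promoters in the table was 52.4% and over the members' promoters 58.0%.

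Corrected for exon length, *Cldn2* made up 51.3% ± 1.16 (SD, n = 2) of the claudin CPM per kb in wildtype mice and 44.0% ± 7.97 (n = 3) in null mice. Its share was 52.1% in null mouse 8637, as high as in the wildtype mice, and 43.8% and 36.1% in mice 9210 and 9121. The 4 distal and collecting duct claudins together held 17.9%, 26.1% and 27.1% in the null mice and 15.7% and 15.3% in the wildtype mice, above both wildtype mice in every null mouse. *Cldn4* alone held 4.61%, 6.74% and 6.58% against 2.77% and 3.16%. The 3 claudins listed as proximal, with both forms of *Cldn10* counted, held 73.0%, 62.6% and 60.6% against 76.5% and 77.4%. Shares of a whole depend on each other, and the total over all claudins was 399 to 415 CPM per kb in null and 432 to 435 in wildtype mice. In wildtype mice the order per kb was *Cldn2* at 222, *Cldn10* at 80.03, *Cldn8* at 35.1, *Cldn12* at 30.96, *Cldn4* at 12.9 and *Cldn3* at 10.6 CPM per kb.

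**Figure D3:**
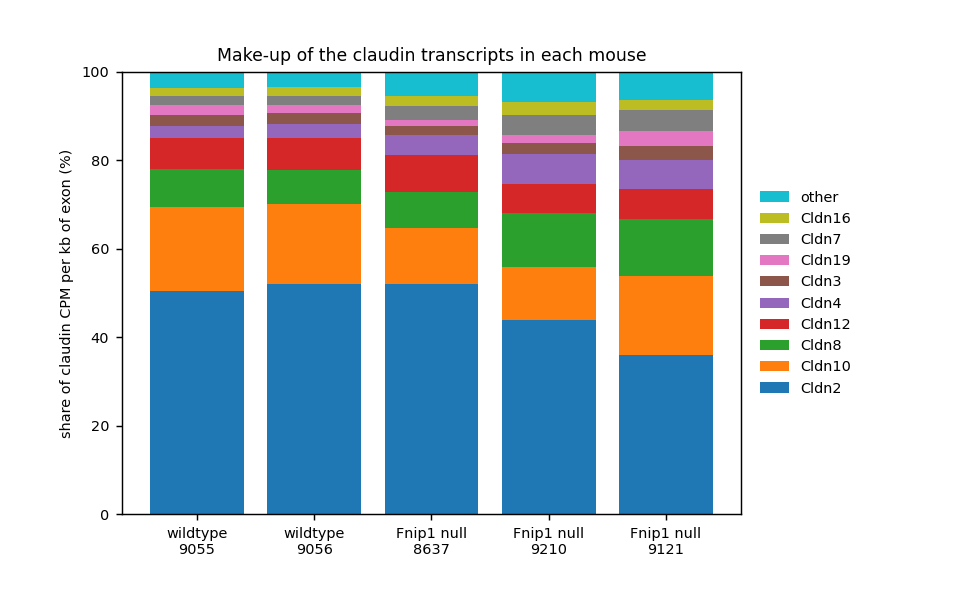
Share of each claudin in the summed claudin CPM per kb of exon (y axis, %) in each mouse (x axis), from *Cldn2* at the bottom to all less abundant claudins at the top. *Cldn2* takes 36.1% in null mouse 9121 and between 50.5% and 52.1% in null mouse 8637 and both wildtype mice, while *Cldn4*, *Cldn7* and *Cldn8* are wider in null mice 9210 and 9121.

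Of the thick ascending limb claudins, none passed the threshold. *Cldn16*, needed for the uptake of magnesium and calcium between cells, was at 10.1, 13.9 and 11.03 CPM against 9.13 and 10.2 CPM (log2 fold change 0.27, 95% interval -0.17 to 0.71). Its partner *Cldn19* was at 24.6, 28.99 and 60.7 CPM against 42.5 and 32.9 CPM, with null mouse 9121 far above the other null mice (log2 fold change 0.018, 95% interval -0.92 to 0.95). Without mouse 9121 the log2 fold change of *Cldn19* was -0.49. *Cldn14*, which blocks the pore made by claudins 16 and 19, had too few counts for the test, at 28, 17 and 7 counts in null and 4 and 0 in wildtype mice. All null mice had more counts than either wildtype mouse. When no gene was left out for low counts, *Cldn14* had an unadjusted p of 0.0239 and an adjusted p of 0.169 in the quasi-likelihood test. Thick limb markers had a median log2 fold change of 0.33, and *Umod*, the uromodulin gene of this segment, was at 5377, 5209 and 7912 CPM against 5747 and 5210.0 CPM.

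*Cldn5*, the claudin of endothelial tight junctions and also made by podocytes, had the lowest p of all members. It was at 13.8, 17.9 and 17.5 CPM in null mice (16.4 ± 2.29, mean and SD, n = 3) and 7.39 and 8.75 CPM in wildtype mice (8.07 ± 0.960, n = 2). Every null mouse was well above both wildtype mice, and mouse 8637 was again the lowest of them. The log2 fold change was 1.02 (SE 0.176, 95% interval 0.60 to 1.45), with an adjusted p of 0.0633 in the quasi-likelihood test and 0.000364 in the exact test of edgeR. Without a filter on low counts it was called, at an adjusted p of 0.0448 in the quasi-likelihood test. All 10 endothelial markers had positive log2 fold changes (median 0.55, none called), and their summed level was 475, 537 and 658 CPM in null and 483 and 289 CPM in wildtype mice, low in wildtype mouse 9056. Counts of *Cldn5* per 100 counts of *Pecam1*, a general endothelial gene, were 25.7, 24.3 and 20.1 in null and 12.7 and 26.5 in wildtype mice, and wildtype mouse 9056 was above all null mice. *Pecam1* itself was at 33.0 CPM in that mouse and 58.2 CPM in wildtype mouse 9055, and ratios to another marker can differ. Podocyte markers were above both wildtype mice in every null mouse for 6 of 6 genes, beside 22.9% of all genes. Their median log2 fold change was 0.89. The part of endothelium and podocytes in the *Cldn5* value was not tested.

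Among the remaining claudins, *Cldn15*, a cation pore best known from the intestine, was at 12.8, 16.04 and 14.8 CPM against 10.7 and 7.26 CPM. Its groups did not overlap (log2 fold change 0.69, quasi-likelihood unadjusted p = 0.0142, adjusted p = 0.122). *Cldn1*, a sealing claudin of the parietal epithelium of Bowman's capsule, was at 16.5, 28.5 and 23.1 CPM against 19.99 and 18.2 CPM and overlapped (log2 fold change 0.25). *Cldn18*, known from stomach and lung, had 18, 0 and 0 counts in null and 23 and 27 counts in wildtype mice, with none in null mice 9210 and 9121. Its adjusted p was 0.312 with all mice and 0.0107 without mouse 8637, both in the quasi-likelihood test. *Cldn6*, an embryonic claudin, and *Cldn22* were between 0.248 and 1.54 CPM in all mice, and all exon bases of *Cldn22* overlap the gene *Wwc2*, so its counts are uncertain.

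The general parts of the tight junction were close in value between the genotypes. *Ocln*, occludin, was at 38.3, 42.8 and 44.6 CPM in null and 42.6 and 40.1 CPM in wildtype mice (log2 fold change 0.019, 95% interval -0.23 to 0.27). *Marveld2*, the tricellulin of corners where cells meet, was at 17.1, 22.6 and 25.6 CPM against 24.4 and 23.5 CPM, with null mouse 8637 the lowest of all mice. *F11r*, which encodes the junction adhesion molecule JAM-A, was at 116, 129 and 122 CPM against 116 and 113 CPM. All of these groups overlapped. *Jam2* and *Jam3*, junction adhesion molecules found also in endothelium, had log2 fold changes of 0.61 and 0.28, and only *Jam3* did not overlap. Of its exon bases, 36.2% are shared with the gene model *Gm48796*.

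Of the scaffolds, *Tjp1* (ZO-1) was at 70.8, 78.9 and 73.1 CPM in null and 66.99 and 49.04 CPM in wildtype mice, above both wildtype mice in every null mouse. Wildtype mouse 9056 was the lowest, and the difference was at an unadjusted p of 0.0469 and an adjusted p of 0.193 (quasi-likelihood test, log2 fold change 0.36). With wildtype mouse 9056 left out, the log2 fold change of *Tjp1* was 0.15. *Tjp3* (ZO-3) had a log2 fold change of 0.34, and the groups overlapped. Cingulin, *Cgn*, which links ZO-1 to myosin, was at 19.1, 22.4 and 25.3 CPM against 24.3 and 20.7 CPM, and its relative *Cgnl1* at 542, 486 and 568 CPM against 518 and 506 CPM. Neither separated the genotypes.

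None of the 5 epithelial cadherins passed the threshold, and the log2 fold changes ran from -0.48 for *Cdh2* to 0.54 for *Cdh6*. *Cdh16*, the kidney-enriched cadherin of tubule cells and the most abundant cadherin, was at 1269, 1374 and 1326 CPM in null and 1404 and 1434 CPM in wildtype mice. All null mice were below both wildtype mice, by little (log2 fold change -0.10, SE 0.129, quasi-likelihood adjusted p = 0.653). The log2 fold change turned to 0.063 when libraries were scaled by size only, which moved the median of all genes to 0.17. *Cdh16* made up 83.0% ± 1.40 (SD, n = 3) of the cadherin CPM per kb in null and 85.2% ± 0.997 (n = 2) in wildtype mice. *Cdh1*, E-cadherin, was at 220.1, 268 and 269 CPM against 245 and 242 CPM and overlapped (log2 fold change 0.052, 95% interval -0.25 to 0.35). *Cdh2*, the N-cadherin of proximal tubule cells, was at 9.78, 3.92 and 7.33 CPM against 9.69 and 9.89 CPM, lowest in null mouse 9210, with mouse 9121 also below both wildtype mice (log2 fold change -0.48, 95% interval -1.32 to 0.36). *Cdh6*, a cadherin of the developing proximal tubule, was at 3.18, 3.56 and 7.02 CPM against 3.54 and 2.80 CPM, high in null mouse 9121 alone (log2 fold change 0.54, SE 0.399). *Cdh3*, P-cadherin, overlapped as well (log2 fold change 0.054).

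*Cdh4*, R-cadherin, a cadherin of the developing kidney epithelium, had the lowest p among members with a negative log2 fold change. It was at 3.003, 2.79 and 2.22 CPM in null mice (2.67 ± 0.407, SD, n = 3) and 5.46 and 6.52 CPM in wildtype mice (5.99 ± 0.744, n = 2). The counts behind it were 51, 47 and 42 in null and 88 and 114 in wildtype mice, and the groups lay well apart. The log2 fold change was -1.17 (SE 0.230, 95% interval -1.72 to -0.61), with an adjusted p of 0.0734 in the quasi-likelihood test and 0.00202 in the exact test of edgeR. With 1 mouse left out at a time it lay between -1.29 and -1.03.

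Cadherins of vessels and stroma had positive log2 fold changes with wide intervals. *Cdh5*, VE-cadherin of endothelial junctions, was at 34.7, 42.95 and 49.2 CPM against 35.02 and 18.5 CPM, and wildtype mouse 9055 lay within the null range (log2 fold change 0.66, quasi-likelihood adjusted p = 0.210). The log2 fold change of *Cdh5* was 0.27 with wildtype mouse 9056 left out and 1.20 with wildtype mouse 9055 left out. Per 100 counts of *Pecam1* there were 64.7, 58.2 and 56.5 counts of *Cdh5* in null and 60.1 and 55.98 in wildtype mice, which overlapped. *Cdh11*, a cadherin of fibroblasts and mesenchyme, was at 10.2, 21.7 and 21.2 CPM against 11.7 and 5.43 CPM. Null mice 9210 and 9121 were above both wildtype mice and mouse 8637 lay between these (log2 fold change 1.05, 95% interval -0.00072 to 2.11, quasi-likelihood adjusted p = 0.1995). All 8 fibroblast and pericyte markers had positive log2 fold changes (median 1.07, none called), with a summed level of 288, 537 and 449 CPM in null and 274 and 148 CPM in wildtype mice. Per 100 counts of *Pdgfrb*, the pericyte and fibroblast growth factor receptor, *Cdh11* had 20.3, 35.4 and 32.9 counts in null and 27.5 and 18.3 in wildtype mice, which overlapped. *Cdh13*, a cadherin anchored by lipid in vessels, had a log2 fold change of 0.54 and overlapped.

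**Figure D4:**
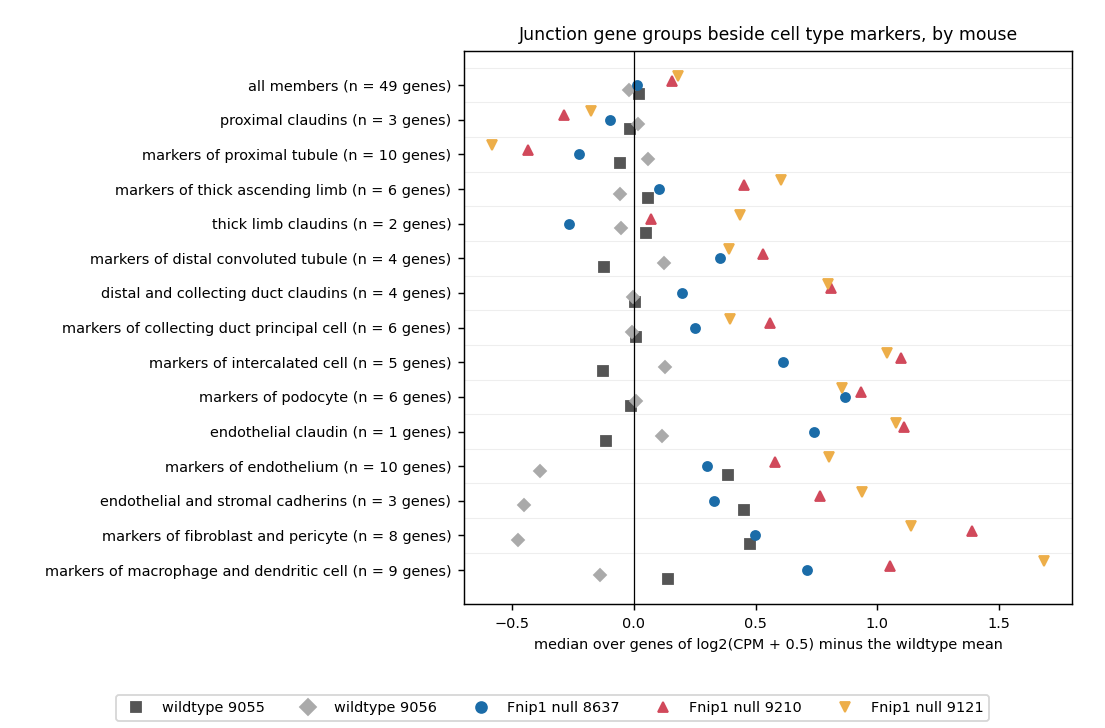
Median over the genes of a group of log2(CPM + 0.5) minus the mean of the 2 wildtype mice (x axis), for junction gene groups and for cell type markers (rows), with a symbol for each of the 5 mice. Collecting duct claudins and markers of principal, intercalated and podocyte cells are higher in the null mice, and proximal claudins and proximal tubule markers are lower. Wildtype mouse 9056 is low for endothelial and fibroblast markers and for endothelial and stromal cadherins, but not for the endothelial claudin.

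The catenins link cadherins to actin. *Ctnna1*, alpha-catenin, was at 381, 384 and 394 CPM in null and 342 and 353 CPM in wildtype mice, above both in every null mouse by little (log2 fold change 0.15, SE 0.1001). *Ctnnd1*, the p120 catenin that keeps cadherins on the membrane, was at 211, 202 and 199 CPM against 206 and 201 CPM (log2 fold change 0.0011), and 61.2% of its exon bases are shared with the gene model *Gm28635*. The neural alpha-catenin *Ctnna2* was low, at 1.24, 1.07 and 0.158 CPM against 1.74 and 3.09 CPM, below both wildtype mice in every null mouse (log2 fold change -1.57, 95% interval -3.20 to 0.057).

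Nectins, the immunoglobulin-type proteins that open a junction, are listed under the older symbols *Pvrl1* to *Pvrl4*. *Pvrl2* (nectin 2) was at 41.3, 48.8 and 60.3 CPM in null and 32.8 and 29.5 CPM in wildtype mice, with an adjusted p of 0.0991 in the quasi-likelihood and 0.0176 in the exact test of edgeR (log2 fold change 0.69, SE 0.172). *Pvrl1* (nectin 1) was at 38.9, 33.98 and 33.4 CPM against 25.1 and 25.5 CPM, with adjusted p-values of 0.0851 and 0.0317 in the same tests of edgeR (log2 fold change 0.48, SE 0.109). Both were above the wildtype mice in every null mouse, and for *Pvrl1* null mouse 8637 was the highest. *Pvrl3* (nectin 3) lay the other way, at 113, 96.5 and 93.8 CPM against 119 and 128 CPM (log2 fold change -0.29, quasi-likelihood unadjusted p = 0.0379, adjusted p = 0.178). *Pvrl4* was low and overlapped, at 2.24, 4.87 and 5.49 CPM against 2.98 and 2.92 CPM. The sum over the 4 nectins was 195, 184 and 193 CPM in null and 179.9 and 185 CPM in wildtype mice.

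Of the 7 polarity members tested, *Pard3b* was higher and *Pard3* lower at an unadjusted p under 0.05, and none was called. *Pard3*, the Par3 scaffold that recruits the Par complex to the junction, was at 58.6, 57.9 and 52.8 CPM in null and 65.4 and 66.1 CPM in wildtype mice, below both in every null mouse (log2 fold change -0.22, quasi-likelihood unadjusted p = 0.0435, adjusted p = 0.188). Its relative *Pard3b* lay the other way, at 26.4, 23.6 and 24.5 CPM against 20.1 and 17.9 CPM (log2 fold change 0.39, quasi-likelihood unadjusted p = 0.0129, adjusted p = 0.119). *Prkci*, the atypical protein kinase C of the complex, was at 52.2, 51.6 and 54.5 CPM against 55.8 and 49.7 CPM, and its 95% interval of log2 fold change was -0.22 to 0.22. *Pard6b*, the Par6 adaptor with the most CPM per kb here, was at 92.9, 87.98 and 89.7 CPM against 83.2 and 83.2 CPM, above both wildtype mice in every null mouse by little (log2 fold change 0.12). *Pard6g*, another Par6 adaptor, had few counts and the largest difference of this list, at 1.59, 4.63 and 3.90 CPM against 2.42 and 1.49 CPM, and the groups overlapped (log2 fold change 0.79, 95% interval -0.41 to 2.00). *Crb3*, the apical Crumbs protein of epithelia, overlapped at 29.3, 32.9 and 38.9 CPM against 31.2 and 27.6 CPM.

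Other genes of the same junctions were read from lists of 71 symbols, of which 68 were in the files and 65 were tested. None was called by the quasi-likelihood test or the exact test of edgeR, 12 were higher and 7 lower at an unadjusted p under 0.05 in the quasi-likelihood test (13.9% and 11.2% of all genes tested), and the median log2 fold change was 0.0024. Among 7 adherens partners, *Ctnnb1* (beta-catenin) was at 604, 619 and 662 CPM against 633 and 605 CPM, and *Jup* (gamma-catenin) had a log2 fold change of 0.029. Among 7 desmosome genes, *Pkp4* had a log2 fold change of -0.15, and *Perp*, which supports desmosome assembly, was at 66.3, 62.1 and 62.6 CPM against 81.5 and 86.6 CPM, below both wildtype mice in every null mouse (log2 fold change -0.40, quasi-likelihood adjusted p = 0.0773). Among 16 polarity genes, the small GTPase *Cdc42* and the kinase *Prkcz*, the most abundant of them by CPM, had log2 fold changes of 0.010 and -0.18, and 3 genes were higher and 1 lower at an unadjusted p under 0.05. Among 20 further tight junction genes, *Ildr2* and *Amotl2* had log2 fold changes of 0.0024 and -0.31. Among 15 transcription factors of epithelial junction genes, *Hnf4a* was at 1171, 811 and 738 CPM against 1186 and 1096 CPM (log2 fold change -0.33). It was the most abundant of this list by CPM, in which 3 genes were higher and 2 lower at an unadjusted p under 0.05 and the median log2 fold change was 0.27.

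Leaving out null mouse 8637 changed the number of members called the most. Of the 3 null mice, this mouse lay nearest to the wildtype mice for *Cldn4*, *Cldn7*, *Cldn5*, *Cldn2* and *Pvrl2*, and among or below them for *Cldn8* and *Cdh11*. Without it, the quasi-likelihood test called *Cldn4*, *Cldn5*, *Cldn7* and *Cdh11* higher and *Cdh4* and *Cldn18* lower, beside 6.49% of all genes called. The log2 fold changes were then 1.09 for *Cldn4*, 1.14 for *Cldn5*, 1.13 for *Cldn7*, 1.34 for *Cdh11* and -1.26 for *Cdh4*. Without null mouse 9121, the mouse with *Xist*, no member was called by that test, and the log2 fold changes were 0.85 for *Cldn4*, 0.97 for *Cldn5* and 0.89 for *Cldn7*, while *Cldn10* stood at -0.66. Leaving out null mouse 9210 or either wildtype mouse left no gene called at all in the quasi-likelihood test.

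**Figure D5:**
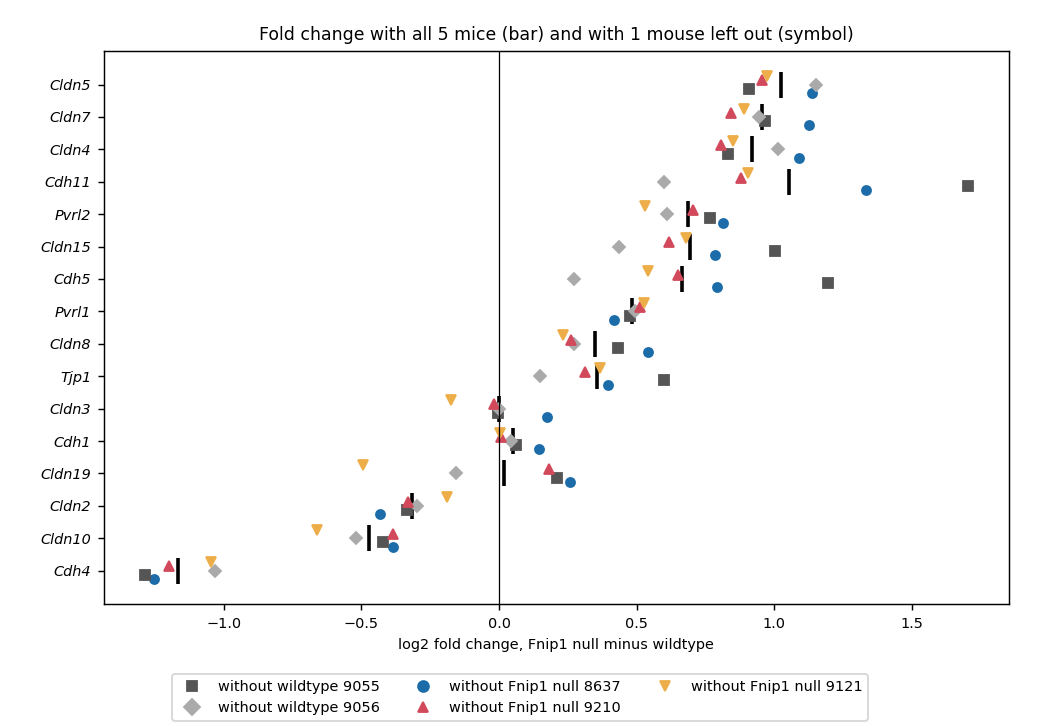
Log2 fold change of 16 members (x axis, *Fnip1* null minus wildtype) with all 5 mice (bar) and with 1 mouse left out (symbol of that mouse). *Cldn5*, *Cldn7*, *Cldn4* and *Cdh4* keep their side of 0 throughout, *Cdh11* moves between 0.60 and 1.70, and *Cldn3* and *Cldn19* cross 0.

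Of the 24 members that were not tested, 6 had no count in any mouse (*Cldn13*, *Cldn24*, *Cdh7*, *Cdh12*, *Cdh15* and *Cdh18*). The other 18 had at most 28 counts in a mouse. Besides *Cldn14*, they were 5 claudins (*Cldn9*, *Cldn11*, *Cldn17*, *Cldn20* and *Cldn23*) and 10 cadherins of nerve, gut, ear and other tissues, among them *Cdh8*, *Cdh17* and *Cdh23*, with *Ctnna3* and *Ctnnd2*. With no filter on low counts, *Cldn14* was the only one of these 18 at an unadjusted p under 0.05 in the quasi-likelihood test.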

How the data were processed

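RNA of frozen cortical kidney tissue was sequenced by the authors with an unstranded TruSeq kit. Per the labels and methods, reads were aligned to mm10 with TopHat 2.1.0 and counted per gene symbol with HTSeq 0.6.1. The deposited values are raw counts per gene, 1 file per mouse. Rows that name no gene held 39.0% to 42.8% of the counts in each file and were left out. Genes were removed when over 2 of the 5 mice had under 10 counts, which left 13874. TMM normalization and the quasi-likelihood test of edgeR 4.0.16 (R 4.3.3) compared 3 *Fnip1* null with 2 wildtype mice, with Benjamini-Hochberg adjustment over all genes tested. A call needed an adjusted p under 0.05 and a 2-fold change. The steps were tested on simulated data. Members were matched to GENCODE M21 (GRCm38), all 73 of them, 4 under newer symbols, and CPM per kb uses the union of exons. An exact permutation test of a single value cannot go below p = 0.1 with these mice. Other tests (DESeq2 1.42.0 among them), normalizations, filters and leaving out each mouse were tried. Leaving out mice in the exact test, and dropping its 2-fold threshold, were added after seeing the data. The pairs of genes in all ratios of counts were also chosen after the values were seen, and no ratio was tested. Named genes were a fixed list, every member at an unadjusted p under 0.05 and the largest change in each role list. Members named outside this rule, among them *Jam3*, *Cdh3*, *Pvrl4*, *Cldn6* and *Cldn22*, were chosen after their values were seen. A few genes that this rule or the marker lists would name are counted but not reported here. The members and lists were chosen with earlier results of these data known. The study's methods give no strand setting for the counting, and with an unstranded kit overlapping antisense genes cannot be told apart.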

Additional observations from a re-analysis of the deposited data

How the results depend on the processing

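Of 41 named and tested members, 32 kept the direction of their log2 fold change in all 18 alternative settings and 9 turned. The count of members called was 0 in either direction with other size factors or a filter on CPM, and 1 higher (*Cldn5*) and 1 lower (*Cdh4*) with edgeR's exact test, its likelihood ratio test and DESeq2. It was 1 higher (*Cldn5*) with no filter on low counts, where 67 members were tested. Of all genes, 0.605% were then called higher and 0.207% lower. Without the fold threshold the exact test gave 5 higher and 1 lower. Leaving out 1 mouse at a time gave 0 to 4 higher and 0 to 2 lower calls with the quasi-likelihood test, and 0 to 5 higher and 0 to 3 lower with the exact test. The highest counts came without null mouse 8637, where 6.49% of all genes were called by the quasi-likelihood test and 8.69% by the exact test. Members at an unadjusted p under 0.05 numbered 15 higher and 1 lower with library size only (21.8% and 5.39% of all genes), 13 and 2 with upper quartile scaling (16.2% and 8.71%), 4 to 16 higher and 1 to 7 lower with 1 mouse left out (5.58% to 19.6% and 3.25% to 18% of all genes), and 4 to 17 and 1 to 6 with the exact test and 1 mouse left out (5.19% to 19.6% and 3.06% to 15.7%). The member median was 0.28 with library size only, which moved the median of all genes to 0.17, 0.24 with no filter, and 0.078 to 0.17 with 1 mouse left out (exact test 0.078 to 0.17). The log2 fold change of *Fnip1* lay between -1.60 and -1.40 with 1 mouse left out, and its adjusted p was then up to 0.506 in the quasi-likelihood test.

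With library size only, *Cdh16* turned to 0.063, *Cgn* to 0.15, *Cldn12* to 0.076, *Marveld2* to 0.035 and *Cldn3* to 0.17, relative to that shift of all genes. With upper quartile scaling *Cgn* was 0.054 and *Cldn3* 0.069. *Cldn3* was 0.00042 with DESeq2, 0.00065 with RLE size factors and 0.0033 with the CPM filter, and *Ctnnd1* and *Prkci* were -0.011 and -0.012 with no filter. With 1 mouse left out the ranges crossed 0 for *Cgn* (-0.12 to 0.11), *Cldn19* (-0.49 to 0.26), *Cldn3* (-0.18 to 0.17), *Ctnnd1* (-0.018 to 0.019), *Marveld2* (-0.27 to 0.015), *Ocln* (-0.028 to 0.084) and *Prkci* (-0.081 to 0.086). Single values on the other side of 0 in the exact test were 0.090 for *Cgn* and 0.0011 for *Cldn3* (without null mouse 8637 and wildtype mouse 9056, respectively), -0.16 for *Cldn19*, -0.015 for *Ctnnd1* and -0.023 for *Ocln* without wildtype mouse 9056, and -0.024 for *Prkci* without null mouse 9121. The cause was not tested. Leaving out a wildtype mouse leaves 1 in that group, which is then assumed to vary like the null mice.

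No paired analysis was possible because the mouse numbers are not shared between the groups. With 5 mice and none of the members past the main threshold, the values describe these libraries, and the p-values measure the spread between separate mice. Depth limits members below about 0.186 CPM, where counts of 0 and low expression were not distinguished.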

Other observations

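Some junction genes outside the members were followed further after their values were seen. *Crb2*, a Crumbs protein needed at the podocyte slit, was at 6.48, 10.6 and 7.33 CPM in null mice 8637, 9210 and 9121 and 4.47 and 4.80 CPM in wildtype mice 9055 and 9056, above both in every null mouse (log2 fold change 0.81, edgeR quasi-likelihood adjusted p = 0.132). *Crb1*, another Crumbs protein, had few counts and the largest log2 fold change of the polarity genes, 1.38, at 3.003, 1.84 and 1.48 CPM against 0.869 and 0.743 CPM (edgeR quasi-likelihood adjusted p = 0.127). *Magi2*, a scaffold of the same slit, was at 23.7, 21.8 and 20.6 CPM against 15.02 and 13.8 CPM, with the same order of the groups (log2 fold change 0.61, edgeR quasi-likelihood adjusted p = 0.0741). Podocyte markers were higher in the same mice, and their part in these values was not tested.

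The desmosomal cadherins *Dsg2* and *Dsc2* were at 15.6, 21.03 and 26.6 and at 5.65, 8.85 and 6.23 CPM in the null mice, against 15.1 and 13.4 and 3.79 and 4.23 CPM in the wildtype mice. Both were above the wildtype mice in every null mouse, with adjusted p-values of 0.194 and 0.138 in edgeR's quasi-likelihood test. The desmosome plaque gene *Pkp3* lay the other way, at 19.7, 18.8 and 23.2 CPM against 27.8 and 28.9 CPM (adjusted p = 0.107 in edgeR's quasi-likelihood test). *Zeb1*, a repressor of epithelial cadherin genes that stromal cells also make, was at 12.1, 13.2 and 14.5 CPM against 9.81 and 5.66 CPM (log2 fold change 0.78, edgeR quasi-likelihood adjusted p = 0.131). *Snai2*, another such repressor, was at 3.18, 4.16 and 3.01 CPM against 2.30 and 0.972 CPM, above both wildtype mice in every null mouse (log2 fold change 1.08, edgeR quasi-likelihood adjusted p = 0.173). *Elf3*, an epithelial transcription factor, was at 17.8, 23.5 and 27.02 CPM against 16.4 and 14.1 CPM (log2 fold change 0.58, adjusted p = 0.145 in the same test), and *Ovol1*, another, lay the other way with a log2 fold change of -0.54 (adjusted p = 0.144 in the same test).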
